A study of Mus musculus with 24 samples.

Results

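Perineuronal nets are lattices of extracellular matrix that wrap the soma and proximal dendrites of certain neurons, most densely those of parvalbumin interneurons and, in the hippocampus, also pyramidal cells of CA2. They are built on hyaluronan, to which lecticans, proteoglycans that carry chondroitin sulfate chains, are fastened by link proteins, while tenascins crosslink the lecticans at their other end. Sulfotransferases set the sulfation of the chondroitin chains, on which the binding of signalling molecules to the net depends. The genes described here were the lecticans *Acan*, *Bcan*, *Ncan* and *Vcan*, the link protein genes *Hapln1* and *Hapln4*, the tenascins *Tnr* and *Tnc*, and the chondroitin sulfate sulfotransferase *Chst15*. These 9 genes were taken by name from the 46983 genes of the count table, and all 9 were among the 16209 genes tested, which reached 10 counts in all mice of 1 group or more. *Chst15* was listed because its read counts were lower in Fkbp5Nex mice, so the genotype difference of the 9 genes is given as a description with no test.

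Bulk RNA of hippocampal punches, dorsal and ventral together, was sequenced from 24 adult female mice of the C57BL/6 strain. The design crossed genotype with rearing and gave 6 mice in each of 4 groups: Fkbp5lox/lox control, Fkbp5lox/lox ELS, Fkbp5Nex control and Fkbp5Nex ELS. Mice of every group carried *Fkbp5*, the gene of the glucocorticoid receptor cochaperone FKBP51, with loxP sites on both alleles. Fkbp5Nex mice also carried Cre recombinase driven from the *Nex* (*Neurod6*) locus, which deletes *Fkbp5* in glutamatergic neurons of the forebrain but, per the study's methods, not in the dentate gyrus. Fkbp5lox/lox littermates without Cre served as wild types. Early life stress (ELS) was limited bedding and nesting material for dam and pups in the first days after birth, and control litters had standard bedding. The comparisons asked whether these matrix genes differed in adult hippocampus with ELS, with the genotype, or with ELS in one genotype more than in the other.

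Total counts ranged from 18347283 to 26555623 per mouse. *Fkbp5*, the deleted gene, had 56.5 ± 5.27 CPM (counts per 1000000, scaled by the trimmed mean of M-values, TMM; SD, n = 12) in Fkbp5lox/lox and 14.0 ± 5.47 in Fkbp5Nex mice, and the ranges did not overlap. Every library held markers of the hippocampal fields, with a summed level of at least 301 CPM for 14 dentate granule cell genes and of at least 415 CPM for 14 genes of CA2 and CA3 neurons. The summed level of 9 CA1 genes was 121 CPM in Fkbp5lox/lox ELS mouse 8 and at least 269 CPM in the other mice. Mouse 8 thus stood apart, and it also had the highest dentate sum, 1567 CPM. Those of choroid plexus, which is not hippocampal tissue, varied widely, with a summed level of 6 genes from 19.4 to 4611 CPM. In bulk tissue, fewer cells of a type and less RNA per cell cannot be told apart.

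The lecticans share an amino-terminal hyaluronan-binding domain and differ in the length of the central region that bears the chondroitin sulfate chains. *Bcan* (brevican, a short lectican of the adult brain; ENSMUSG00000004892, chr3:87987531-88000230 on the minus strand, GRCm38) had between 176 and 275 CPM in the 24 mice. *Ncan* (neurocan, prominent in the developing brain; ENSMUSG00000002341, chr8:70093085-70120873, minus strand) had between 139.6 and 264 CPM. The spread of *Ncan* was unequal between groups, since the Fkbp5Nex control mice alone spanned the whole range while Fkbp5lox/lox ELS mice stayed between 157 and 196 CPM. *Vcan* (versican, made in the brain largely by oligodendrocyte precursors; ENSMUSG00000021614, chr13:89655312-89742509, minus strand) lay between 18.5 and 32.1 CPM. *Acan* (aggrecan, the lectican most used to mark mature nets; ENSMUSG00000030607, chr7:79053483-79115099, plus strand) was scarce, with 38 to 95 counts per mouse and between 1.67 and 4.34 CPM. Each of the 4 groups overlapped with every other in all 4 lecticans.

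Each lectican gene has a link protein gene as its neighbour, and both link genes of the set sit beside a lectican. *Hapln4* (ENSMUSG00000007594, chr8:70083457-70090862, plus strand), which encodes a brain link protein found around brainstem and cerebellar synapses, ends 2222 bases from the end of *Ncan*. *Hapln1* (ENSMUSG00000021613, chr13:89539796-89611652, plus strand), the cartilage link protein that is required for compact nets, lies 43659 bases from *Vcan*. *Hapln4* varied more than any other of the 9 genes. In Fkbp5lox/lox control mice the lowest *Hapln4* value was 55.9, the median 114 and the highest 137 CPM. In Fkbp5lox/lox ELS mice these were 70.1, 114 and 166 CPM. Medians of the Fkbp5lox/lox groups were thus alike, and the low end was held by 1 mouse in each. In Fkbp5Nex control mice *Hapln4* ran from 57.8 over a median of 137 to 186 CPM. In Fkbp5Nex ELS mice it stayed between 109 and 145 CPM, with a median of 128. The Fkbp5Nex ELS values all lay inside the range of the Fkbp5Nex controls. *Hapln1* had medians of 41.0, 36.02, 40.2 and 43.4 CPM in Fkbp5lox/lox control, Fkbp5lox/lox ELS, Fkbp5Nex control and Fkbp5Nex ELS mice, with extremes of 27.3 and 59.9 CPM that were both from Fkbp5Nex control mice.

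Tenascin-R, the product of *Tnr* (ENSMUSG00000015829, chr1:159523769-159931729, plus strand), is the trimer that crosslinks lecticans in adult nets, while tenascin-C (*Tnc*, ENSMUSG00000028364, chr4:63959785-64047015, minus strand) belongs mainly to development and to reactive astrocytes. *Tnr* lay between 116 and 292 CPM, and both extremes were Fkbp5Nex control mice. *Tnc* had few reads, from 92 to 260 per mouse. Its lowest, median and highest values were 5.04, 6.85 and 8.03 CPM in Fkbp5lox/lox control mice and 5.51, 6.88 and 9.63 CPM in Fkbp5lox/lox ELS mice. In Fkbp5Nex control mice they were 5.93, 7.77 and 10.9 CPM, and in Fkbp5Nex ELS mice 4.67, 5.49 and 10.4 CPM. Of the 6 Fkbp5Nex ELS mice, 5 were below the Fkbp5Nex control mean, 3 were below every Fkbp5Nex control, and mouse 66, with the highest value, was the exception.

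*Chst15* (ENSMUSG00000030930, chr7:132235780-132317228, minus strand) encodes the enzyme that adds a 6-sulfate to units already sulfated at position 4 and so makes the doubly sulfated chondroitin sulfate E. Fkbp5lox/lox control mice had from 36.01 to 56.3 CPM with a median of 41.2. Fkbp5lox/lox ELS mice had from 40.2 to 56.8 CPM with a median of 43.5. The 12 Fkbp5lox/lox mice lay within a range from 36.01 to 56.8 CPM. In Fkbp5Nex control mice the lowest value was 23.5, the median 32.5 and the highest 63.3 CPM. In Fkbp5Nex ELS mice they were 25.7, 33.0 and 49.7 CPM. Of the 12 Fkbp5Nex mice, 7 were below every Fkbp5lox/lox mouse, 4 were within the Fkbp5lox/lox range and 1, control mouse 12, was above it. Without strand information, reads from *Chst15* cannot be told apart from those of its antisense partner *Gm10584*, which shares 1206 of the 6754 exonic bases. No gene of that name was among those counted. *Tnr* and *Tnc* share 443 and 176 exonic bases with genes on the opposite strand, *Gm38039* and *8030451A03Rik*, to which 0 and at most 13 reads per mouse were assigned. Here too, reads in the shared bases cannot be told apart without strand information.

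**Figure D1:**
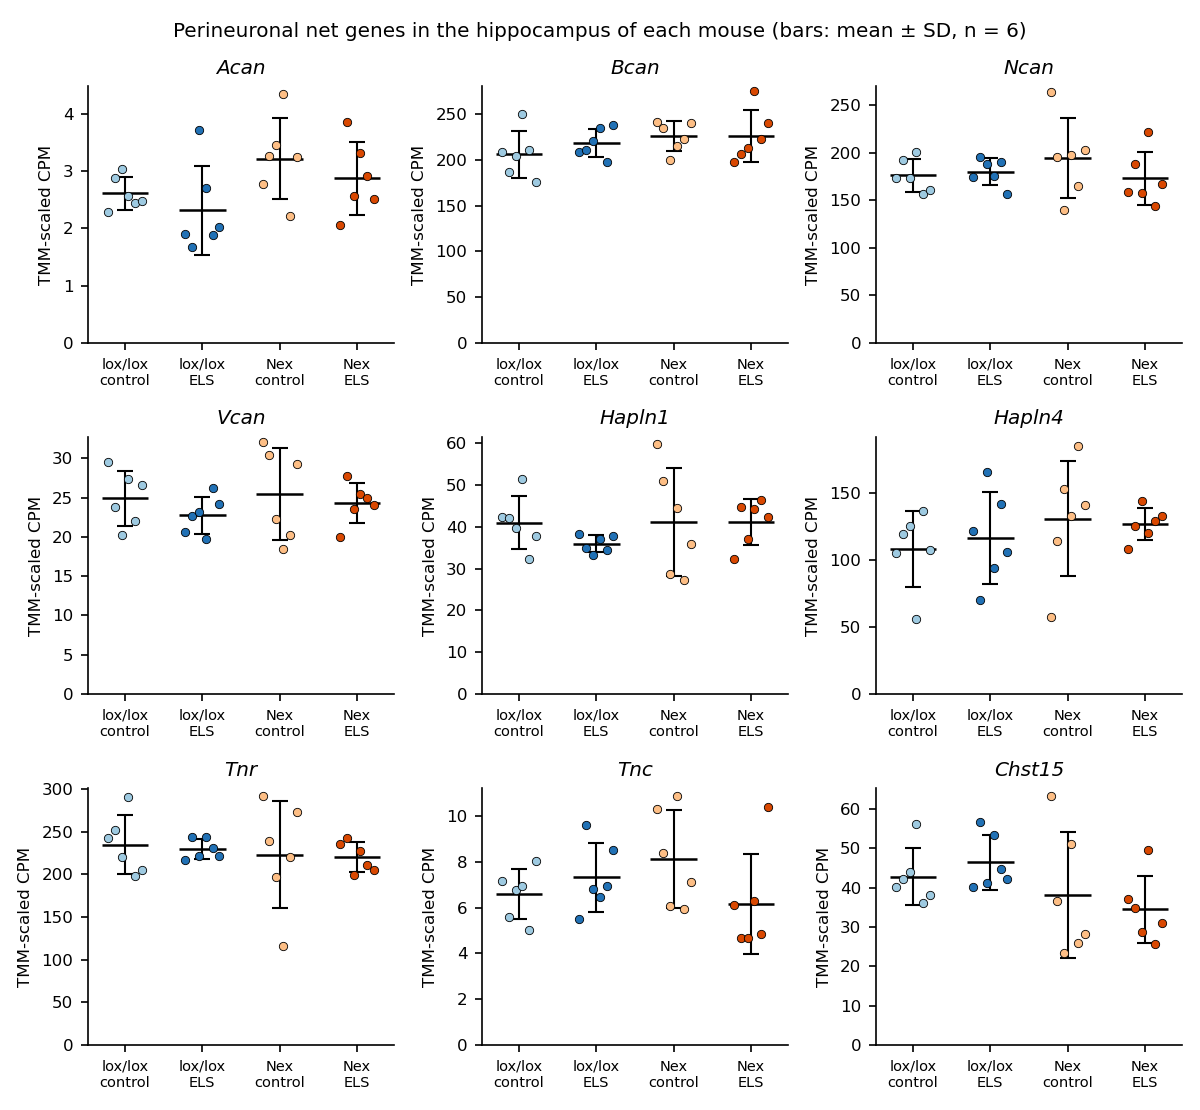
TMM-scaled CPM (vertical axes, from 0) of the 9 genes in the 4 groups (horizontal axes), with 1 point per mouse and bars for the mean ± SD of 6 mice. Groups overlap in every panel, and the Fkbp5Nex control mice spread most in *Ncan*, *Vcan*, *Hapln1*, *Hapln4*, *Tnr* and *Chst15*. In *Chst15*, 7 of 12 Fkbp5Nex mice lie below the lowest Fkbp5lox/lox mouse.

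Upstream sequence is shown for *Chst15*, the gene listed for its lower counts in Fkbp5Nex mice. It is also shown for *Ncan*, whose level among the 9 genes followed that of *Chst15* most closely from mouse to mouse. *Bcan* is shown as the only one with a match to the motif searched. FKBP51 acts on the glucocorticoid receptor, which binds DNA at an inverted repeat whose arms resemble AGAACA. In the 250 bases before each RefSeq transcription start (GRCm38.p6), 8 of the 9 genes had a window in the table used, with 10 windows in all, and both strands were searched. The letters, in capitals in the sequences that follow, were found in 1 of the 10 windows, against 16.1% of all 32851 windows in the table.
Bcan, chr3:88000357-88000606, minus strand: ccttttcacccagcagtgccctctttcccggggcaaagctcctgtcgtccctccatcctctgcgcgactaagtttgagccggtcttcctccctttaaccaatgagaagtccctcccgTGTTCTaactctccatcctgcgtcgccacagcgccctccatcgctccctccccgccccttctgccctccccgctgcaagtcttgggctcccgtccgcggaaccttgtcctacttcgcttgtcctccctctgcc
Ncan, chr8:70120845-70121094, minus strand: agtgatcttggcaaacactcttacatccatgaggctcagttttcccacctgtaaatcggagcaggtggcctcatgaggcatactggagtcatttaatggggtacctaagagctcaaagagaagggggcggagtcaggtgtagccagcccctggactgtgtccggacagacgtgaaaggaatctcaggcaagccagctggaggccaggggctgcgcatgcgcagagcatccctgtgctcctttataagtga
Chst15, chr7:132317229-132317478, minus strand: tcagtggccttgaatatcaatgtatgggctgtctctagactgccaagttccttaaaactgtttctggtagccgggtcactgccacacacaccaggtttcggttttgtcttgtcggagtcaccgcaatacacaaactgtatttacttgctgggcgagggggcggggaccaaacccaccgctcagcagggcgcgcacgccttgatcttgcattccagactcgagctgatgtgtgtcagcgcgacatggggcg
In *Bcan* the match begins 133 bases before the start, on the opposite strand. No AGAACA on either strand was present in the *Chst15* and *Ncan* windows, which says only that these letters are absent there.

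Levels were compared between genes as CPM per kb of exon (all exons of the gene in GENCODE vM21). *Bcan* stood highest with 53.8 ± 5.47 CPM per kb (SD, n = 24), followed by *Hapln4* with 30.8 ± 7.84, *Ncan* with 25.2 ± 3.76 and *Tnr* with 17.6 ± 2.74 CPM per kb. *Hapln1* and *Chst15* were next, at 6.76 ± 1.28 and 5.99 ± 1.58 CPM per kb. *Vcan* had 1.69 ± 0.26, *Tnc* 0.907 ± 0.235 and *Acan* 0.369 ± 0.091 CPM per kb, which put *Acan* at percentile 6.47 of the tested genes and *Bcan* at percentile 95.3. Most neighbours in this order overlapped over the 24 mice. The ranges were apart only for *Chst15* above *Vcan* and for *Tnc* above *Acan*, although *Bcan* exceeded *Hapln4*, *Ncan* exceeded *Tnr* and *Tnr* exceeded *Hapln1* within each of the 24 mice. *Hapln4* was above *Ncan* in 19 and *Hapln1* above *Chst15* in 18 of 24 mice. Of the summed per-length level of the 4 lecticans, *Bcan* made up 66.5% ± 2.89, *Ncan* 31.0% ± 2.81, *Vcan* 2.09% ± 0.294 and *Acan* 0.457% ± 0.113 (SD, n = 24), and the share of *Bcan* stayed between 60.2% and 71.2% in every mouse.

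**Figure D2:**
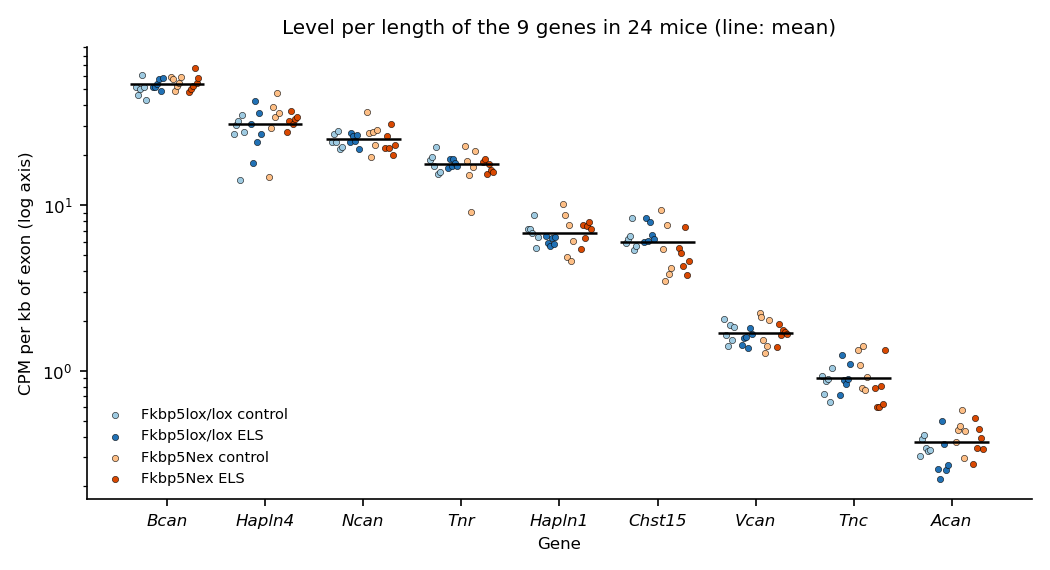
Level of each gene per kb of exon (vertical log axis, CPM per kb) in 24 mice, coloured by group, with a line at the mean. The genes fall from *Bcan* at 53.8 to *Acan* at 0.369 CPM per kb, and the 4 groups lie over one another at each gene.

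None of the 9 genes passed the test for ELS in either genotype. In Fkbp5lox/lox mice 0 of 9 were called at a false discovery rate (FDR) of 0.02 in edgeR's quasi-likelihood test with 5 surrogate variables, against 0% of all 16209 genes (0 called, 788 with an unadjusted p below 0.05), and log2 fold changes ran from −0.09 in *Acan* to 0.23 in *Hapln4*. Only *Hapln4* was below 0.05 there before adjustment (log2 fold change 0.23, SE 0.08, unadjusted p = 0.00848, adjusted p = 0.954 by edgeR). This value depended on single mice. It was −0.03 without Fkbp5lox/lox control mouse 44, which had the lowest *Hapln4* level, 0.12 without control mouse 74, 0.15 without control mouse 30 and 0.13 without ELS mouse 8. It was 0.10 (SE 0.22) without surrogate variables, and an exact permutation test of the log2 CPM gave p = 0.697. *Chst15* differed by 0.09 (SE 0.07) and *Ncan* by 0.09 (SE 0.07) in the same comparison, and the sign for *Acan* turned when either Fkbp5lox/lox ELS mouse 4 or mouse 72 was left out (0.03 and 0.04). DESeq2's Wald test called 1 gene here, *Bok*, named after its value was seen. *Bok* is among the CA2 and CA3 neuron markers, of which 11 of 14 had positive estimates in this comparison, with a median of 0.10 against 0.003 over all genes. All 13 thalamus markers had positive estimates too (median 0.30). The study names *Tcf7l2*, *Zic1* and *Zic4* among them as module hub genes that rose with ELS in these mice, so their signs were known beforehand. Estimates were negative for 10 of 10 oligodendrocyte markers (median −0.12) and 12 of 14 dentate granule cell markers (median −0.15). No marker gene was called by edgeR. These estimates are adjusted for the surrogate variables. The median unadjusted sum in Fkbp5lox/lox control and ELS mice was 650 and 736 CPM for dentate, 3357 and 3508 CPM for oligodendrocyte markers. The part of the marker lists in the *Hapln4* value was not tested.

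In Fkbp5Nex mice 0 of 9 genes were called after ELS, against 0% of all genes (0 of 16209, with 454 at an unadjusted p below 0.05). *Tnr* had a log2 fold change of −0.14 (SE 0.07, unadjusted p = 0.0469, adjusted p = 0.9996 by edgeR). *Tnc* differed by −0.27 (SE 0.20), *Ncan* by −0.11 (SE 0.07), *Hapln1* by 0.12 (SE 0.10) and *Chst15* by 0.06 (SE 0.07), with adjusted p of 0.9996 each. Without surrogate variables the estimate for *Tnc* was −0.40 (SE 0.19), that for *Chst15* changed sign to −0.15 (SE 0.20), and *Tnr* was at −0.02 (SE 0.14). Leaving out Fkbp5Nex ELS mouse 66 moved *Tnc* to −0.46. Of the marker lists, estimates were positive in 13 of 14 dentate granule cell (median 0.19), 6 of 6 choroid plexus (median 1.14) and 7 of 9 CA1 genes (median 0.31), and negative in 8 of 8 microglial (median −0.08) and 9 of 10 astrocyte genes (median −0.08), with none called. These estimates are adjusted for the surrogate variables. The unadjusted choroid plexus sum ran from 19.4 to 3435 CPM, median 56.0, in Fkbp5Nex control mice. In Fkbp5Nex ELS mice it ran from 24.1 to 1514 CPM, median 147. The part of the marker lists in the values of the 9 genes was not tested. No filter on low counts let 1 gene be called in this comparison and over both genotypes, *Slc4a5*, a choroid plexus transporter named after its value was seen.

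Averaged over both genotypes, ELS left 0 of 9 genes called against 0% of all genes (0 of 16209, 577 with an unadjusted p below 0.05). *Hapln4* had a log2 fold change of 0.12 (SE 0.06, unadjusted p = 0.0394, adjusted p = 0.9995 by edgeR), *Chst15* of 0.07 (SE 0.05) and *Tnc* of −0.13 (SE 0.15). The value of *Hapln4* was −0.03 without Fkbp5lox/lox control mouse 44, 0.07 without Fkbp5lox/lox ELS mouse 8 and 0.08 without Fkbp5Nex ELS mouse 60. For the interaction, the ELS effect in Fkbp5lox/lox minus that in Fkbp5Nex mice, 0 of 9 genes were called against 0% of all genes (0 of 16209, 651 with an unadjusted p below 0.05), and all 9 had unadjusted p above 0.05. *Tnc* showed the largest estimate among the 9, at 0.28 (SE 0.28). It was 0.56 (SE 0.27) without surrogate variables, where an exact permutation test gave p = 0.0605 (adjusted p = 0.949 over 36 tests), and 0.53 without Fkbp5Nex ELS mouse 66. *Hapln4*, *Ncan* and *Tnr* had interaction estimates of 0.20 (SE 0.11), 0.20 (SE 0.10) and 0.18 (SE 0.09), *Hapln1* of −0.19 (SE 0.14) and *Chst15* of 0.03 (SE 0.10). The estimate for *Hapln4* was −0.02 without Fkbp5lox/lox control mouse 74, and that for *Chst15* was between −0.04 and −0.01 without Fkbp5lox/lox ELS mouse 72, Fkbp5Nex control mouse 12 or Fkbp5Nex ELS mouse 62. That for *Tnr* was −0.01 without surrogate variables. Over the 9 genes and 4 ELS comparisons, none of the 36 exact permutation tests reached 0.05, although the smallest p that the arrangements within a genotype allow is 0.00216.

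**Figure D3:**
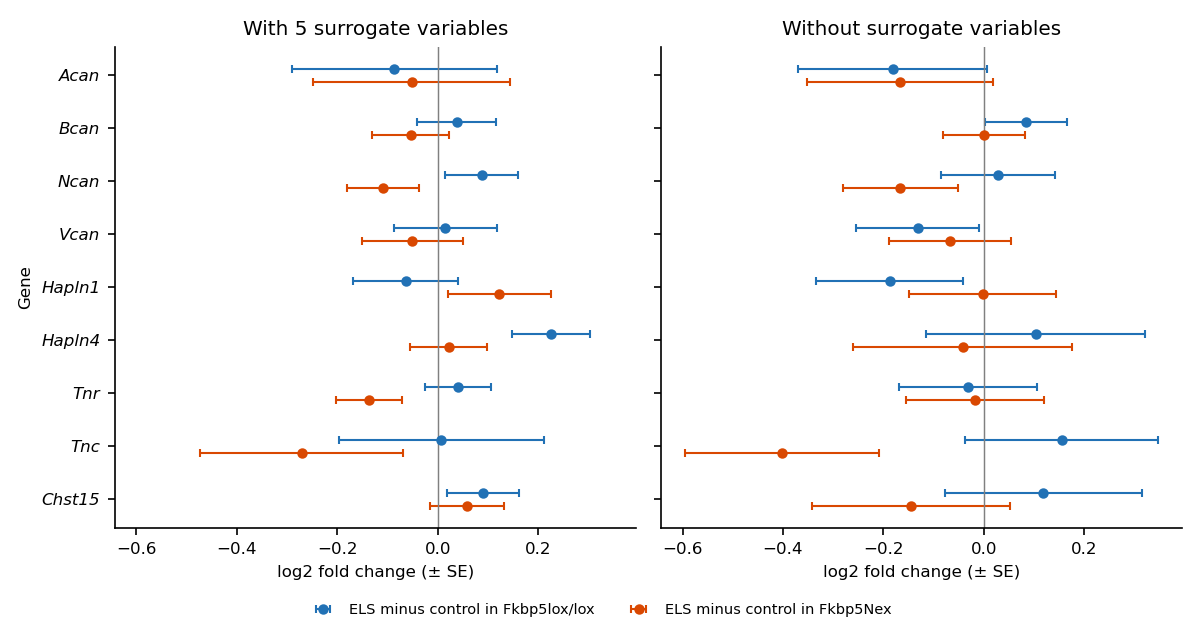
log2 fold change of ELS against control mice (horizontal axis, ± SE) of the 9 genes in Fkbp5lox/lox and Fkbp5Nex mice, from the model with 5 surrogate variables (left) and without them (right). Estimates lie on both sides of 0 in Fkbp5lox/lox mice and, with surrogate variables, in Fkbp5Nex mice. Without them *Bcan*, at 0.0003, is the only Fkbp5Nex estimate not below 0. *Hapln4* in Fkbp5lox/lox mice moves from 0.23 to 0.10 between the panels while its SE grows from 0.08 to 0.22.

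The genotype difference chose *Chst15*, so its values are descriptive. *Chst15* had 36.3 ± 12.3 CPM in Fkbp5Nex and 44.6 ± 7.003 CPM in Fkbp5lox/lox mice (SD, n = 12), a log2 fold change of −0.31 (SE 0.048). The estimate was −0.30 (SE 0.07) in control and −0.33 (SE 0.07) in ELS mice. Without surrogate variables it was −0.30 (SE 0.14) over both rearing conditions, −0.16 (SE 0.20) in control and −0.43 (SE 0.20) in ELS mice, and *Chst15* was then not called. It was also not called when Fkbp5lox/lox control mouse 74 was left out, and leaving out each mouse in turn gave estimates from −0.36, without Fkbp5Nex control mouse 12, to −0.28. *Chst15* was the 1 called gene of the 9, against 0.117% of all genes tested (19 of 16209), a count from which nothing is read because the gene was selected on it. The other 8 genes had positive estimates, led by *Acan* at 0.21 (SE 0.13), which had 3.04 ± 0.67 CPM in Fkbp5Nex and 2.46 ± 0.58 CPM in Fkbp5lox/lox mice, and *Bcan* at 0.12 (SE 0.05). *Hapln4*, *Hapln1*, *Vcan*, *Ncan*, *Tnc* and *Tnr* lay between 0.10 and 0.01, and without surrogate variables that of *Hapln4* was 0.20 (SE 0.15) and that of *Tnr* −0.07 (SE 0.10). Without Fkbp5lox/lox control mouse 28 those of *Ncan* and *Tnr* were −0.001 and −0.07, and without Fkbp5Nex ELS mouse 66 that of *Tnc* was −0.09.

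Marker genes of other cells differed by genotype beside *Chst15*. All 14 dentate granule cell markers had negative estimates for Fkbp5Nex mice, with 5 of them called (*Prox1*, *Glis3* and *Dsp* and, named after their values were seen, *Fam163b* and *Npnt*) and a median log2 fold change of −0.46 against −0.001 over all genes. The summed level of the 14 markers ran from 515 to 893 CPM in Fkbp5lox/lox control, from 499 to 1567 in Fkbp5lox/lox ELS, from 301 to 1102 in Fkbp5Nex control and from 343 to 837 CPM in Fkbp5Nex ELS mice. Fkbp5Nex control mouse 12, whose *Chst15* level was the highest of the 24, also had the highest dentate marker sum of the Fkbp5Nex mice, and mouse 42 had the lowest value of both. The choroid plexus markers had negative estimates too, in 6 of 6 genes with *Ttr* called and a median of −1.28. Without surrogate variables no gene of the dentate or choroid plexus lists was called. Without Fkbp5lox/lox control mouse 74, *Prox1* and *Ttr* were the only genes of these lists still called. Positive estimates were found for markers of the neighbouring thalamus (13 of 13 genes, median 0.29), oligodendrocytes (10 of 10, median 0.13), endothelial and mural cells (9 of 9, median 0.12), microglia (8 of 8, median 0.09) and astrocytes (9 of 10, median 0.12), with none called. All these marker estimates are adjusted for the surrogate variables. The median unadjusted thalamus sum was 804 and 978 CPM in Fkbp5lox/lox control and ELS mice. In Fkbp5Nex control and ELS mice it was 900 and 897 CPM. The part of the marker lists in the differences of *Chst15* and the other 8 genes was not tested.

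The 9 genes differed in how much they varied among mice of one group. The SD of log2 CPM around the group means was 0.439 for *Hapln4*, 0.366 for *Chst15*, 0.346 for *Tnc*, 0.321 for *Acan*, 0.276 for *Hapln1*, 0.269 for *Tnr*, 0.225 for *Vcan*, 0.211 for *Ncan* and 0.144 for *Bcan*, against a median of 0.184 over all tested genes. Set among tested genes of like level, *Hapln4* was at percentile 98.9, *Chst15* at 97.0 and *Tnr* at 95.7, whereas *Acan* was at 46.6 and *Bcan* at 60.2. *Hapln4*, *Chst15* and *Tnr* thus varied more from mouse to mouse than most genes of their abundance, while *Acan* stood near the middle of the genes at its low level.

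This variation was shared among some of the genes and opposed among others. Over 24 mice, with the group means removed and values permuted within groups, *Ncan* and *Chst15* had a Pearson r of 0.822 (permutation p = 2.0e-05, adjusted p = 0.00072 over 36 pairs; Spearman rho 0.725, permutation p = 5.1e-04, adjusted p = 0.00918). *Hapln4* ran against *Chst15*, with r = −0.730 (permutation p = 1.1e-04, adjusted p = 0.00198) and rho = −0.686 (permutation p = 4.0e-04, adjusted p = 0.00918), and r was negative within each of the 4 groups. *Hapln4* also ran against the other link gene *Hapln1*, with r = −0.663 (permutation p = 5.5e-04, adjusted p = 0.0066) and rho = −0.616 (permutation p = 0.0016, adjusted p = 0.0192). With the 2 most distant mice removed these values of r were 0.698, −0.559 and −0.447, without Fkbp5Nex control mouse 12 alone 0.758, −0.619 and −0.533, and without Fkbp5lox/lox ELS mouse 8 alone 0.819, −0.722 and −0.723. *Ncan* with *Tnr* (rho 0.635, adjusted permutation p = 0.0311) and *Tnc* with *Chst15* (rho 0.623, adjusted permutation p = 0.0395) passed by rank only, with r of 0.411 and 0.547. Neither pair of gene neighbours passed the threshold, with r = −0.549 (adjusted permutation p = 0.0654) for *Ncan* and *Hapln4* and r = 0.546 (adjusted permutation p = 0.155) for *Vcan* and *Hapln1*. *Acan* had no relation past the threshold with any of the other 8 genes. All values of a mouse come from one library, so that more RNA of one kind lowers the share of the rest.

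Several of the genes went with the markers of a cell type. *Hapln4* followed 14 markers of CA2 and CA3 neurons (such as *Bok*, *Grik4* and *Elavl2*) with r = 0.935 and rho = 0.886 (permutation p = 1e-05 each, the smallest that 100000 permutations can give; adjusted p = 0.00027 and 0.00054 over 108 relations). *Hapln1* followed 10 astrocyte markers (such as *Aqp4*, *Gja1* and *Aldoc*) with r = 0.936 and rho = 0.897 (adjusted permutation p = 0.00027 and 0.00072). *Vcan* followed 9 markers of oligodendrocyte precursors (such as *Pdgfra*, *Gpr17* and *C1ql1*) with r = 0.784 and rho = 0.831 (adjusted permutation p = 0.00216 and 0.00144). *Chst15* followed the dentate granule cell markers with r = 0.815 and rho = 0.783 (adjusted permutation p = 0.00027 and 0.00108). With the 2 mice of most distant marker scores removed, r was 0.864, 0.902, 0.791 and 0.758 in these 4 relations, and without Fkbp5lox/lox ELS mouse 8 alone it was 0.948, 0.940, 0.785 and 0.835. *Bcan* went with endothelial and mural cell markers (r = 0.696, rho = 0.777, adjusted permutation p = 0.00144 and 0.00154). It also went with astrocyte markers (r = 0.537, rho = 0.541, adjusted permutation p = 0.0254 and 0.0458). *Ncan* went with microglial markers (r = 0.835, rho = 0.690, adjusted permutation p = 0.00189 and 0.0136). With the 2 most distant mice removed these values of r were 0.688, 0.509 and 0.702.

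*Chst15* was related to more than the dentate list. It ran against the markers of oligodendrocytes (r = −0.814), choroid plexus (r = −0.793) and CA2 and CA3 neurons (r = −0.750) and with those of microglia (r = 0.780) and astrocytes (r = 0.767), with adjusted permutation p between 0.00027 and 0.00529. By rank these 5 relations had rho of −0.797, −0.832, −0.656, 0.652 and 0.705, with adjusted permutation p between 0.00054 and 0.0217. *Ncan*, which followed *Chst15*, had the same signs, with r of 0.753 for astrocytes, 0.634 for dentate granule cells, −0.701 for oligodendrocytes, −0.673 for choroid plexus and −0.589 for CA2 and CA3 neurons (adjusted permutation p between 0.00246 and 0.0421). By rank its relations with dentate granule cells (rho = 0.471, adjusted permutation p = 0.0869) and with CA2 and CA3 neurons (rho = −0.468, adjusted permutation p = 0.0989) did not pass. *Hapln4* had the opposite signs, with r = −0.765 for dentate granule cells, −0.713 for astrocytes and 0.713 for oligodendrocytes (adjusted permutation p of 0.00261, 0.00238 and 0.00527). It also went with choroid plexus markers (r = 0.680, rho = 0.672, adjusted permutation p = 0.00527 and 0.0136). Beside astrocytes, *Hapln1* had r = 0.794 for microglia, −0.692 for oligodendrocytes and −0.663 for CA2 and CA3 neurons (adjusted permutation p of 0.00616, 0.00529 and 0.0108). By rank the last of these did not pass (rho = −0.513, adjusted permutation p = 0.083). *Acan*, *Tnr* and *Tnc* had no Pearson relation past the threshold with any of the 12 lists. By rank *Tnr* ran against the markers of CA2 and CA3 neurons (rho = −0.634, adjusted permutation p = 0.0158), thalamus (rho = −0.577, adjusted permutation p = 0.0230) and choroid plexus (rho = −0.544, adjusted permutation p = 0.0482), and *Tnc* with those of astrocytes (rho = 0.595, adjusted permutation p = 0.0374). The list for parvalbumin interneurons, the cells best known for nets, also holds genes shared with other GABA neurons (such as *Gad1*, *Gad2* and *Slc32a1*). No relation of this list with any of the 9 genes passed. The strongest were *Chst15* (r = −0.538, rho = −0.457, adjusted permutation p = 0.0714 and 0.126) and *Ncan* (r = −0.464, rho = −0.316, adjusted permutation p = 0.120 and 0.269), beside *Acan* (r = 0.038, rho = 0.009, adjusted permutation p = 0.888 and 0.972) and *Hapln4* (r = 0.248, rho = 0.104, adjusted permutation p = 0.441 and 0.726). In all, 24 of the 108 relations passed by Pearson r.

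**Figure D4:**
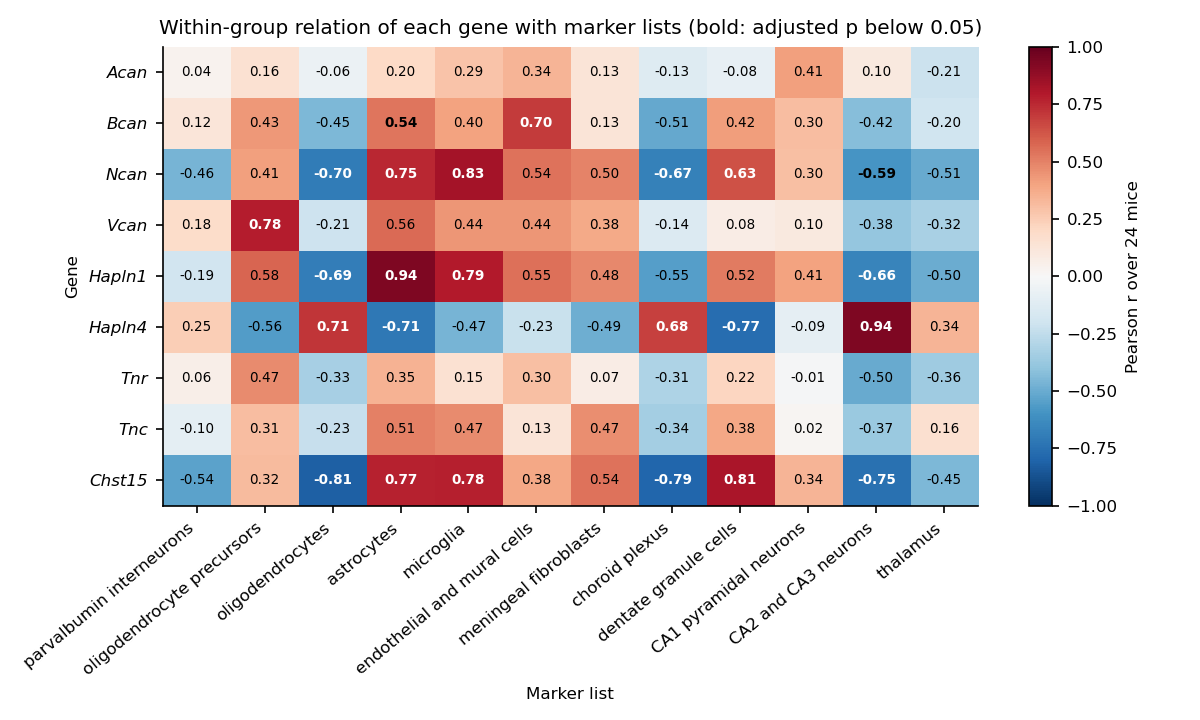
Pearson r over 24 mice, group means removed, between each of the 9 genes (rows) and the mean z-score of 12 marker lists (columns), on a colour scale from −1 to 1 with values past an adjusted permutation p of 0.05 in bold. *Hapln4* peaks at CA2 and CA3 neurons, *Hapln1* at astrocytes, *Vcan* at oligodendrocyte precursors and *Chst15* at dentate granule cells, while the row of *Acan* holds no bold value.

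**Figure D5:**
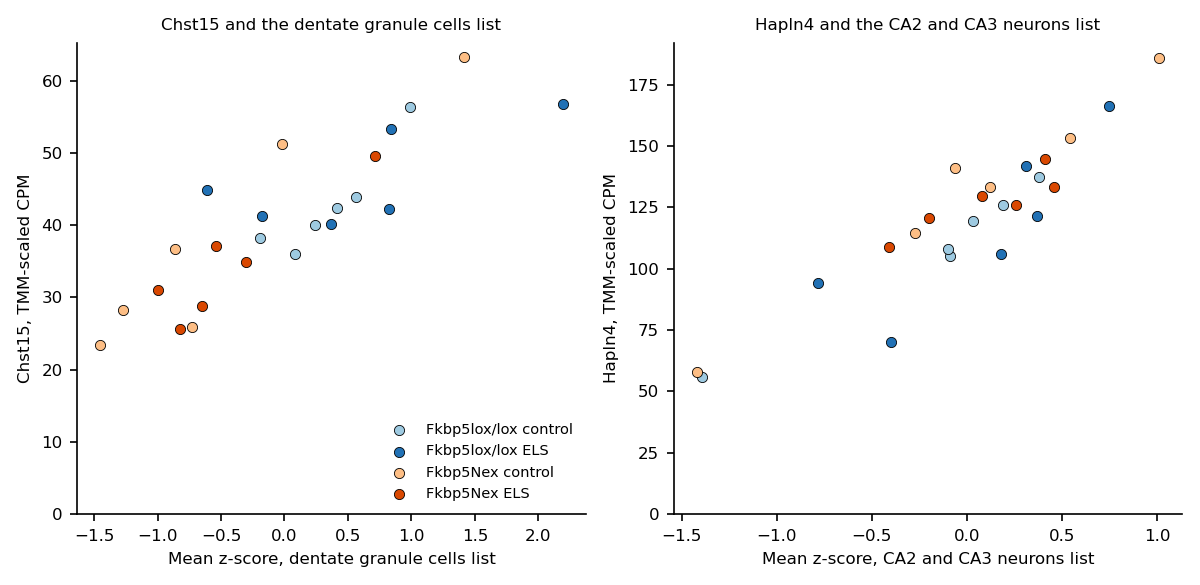
Left, *Chst15* (vertical axis, TMM-scaled CPM) against the mean z-score of 14 dentate granule cell markers (horizontal axis); right, *Hapln4* against that of 14 CA2 and CA3 markers, with 1 point per mouse coloured by group. Points of all 4 groups rise together from left to right in both panels, with Fkbp5Nex control mouse 12 at the highest *Chst15* value of 63.3 CPM and among the lowest *Hapln4* values at 57.8 CPM.

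The single genes most like each member over the 24 mice, by Pearson r of the within-group deviations, were given no test. *Chst15* was closest to *Cspg5* (r = 0.920), itself a chondroitin sulfate proteoglycan of the brain, to the clock repressor *Bhlhe41* (0.920) and to *Bcl11b* (0.919), a transcription factor of dentate and CA1 neurons. *Hapln4* was closest to the lipid kinase gene *Pip4k2c* (0.954), the calcium sensor gene *Cabp1* (0.950) and *Lynx1* (0.949), which encodes a modulator of nicotinic receptors. *Hapln1* was closest to the secreted factor gene *Ndnf* (0.932), *Ddah1* (0.924) and the astrocytic aldolase *Aldoc* (0.909). *Tnr* was closest to *Zkscan2* (0.925), *Kmt2e* (0.923) and *B230334C09Rik* (0.916), and *Ncan* to *AF251705* (0.874), *Phka2* (0.866) and *D430019H16Rik* (0.865). The closest genes of the other members had lower r, with *Fgd6* (0.831), *Pde3a* (0.825) and *Itpr2* (0.819) for *Vcan*, *Neurl1a* (0.820), *Zc3h7b* (0.780) and *Ncs1* (0.775) for *Bcan*, *Cnbd2* (0.755), *Ndp* (0.730) and *Renbp* (0.711) for *Tnc*, and *Gm15697* (0.718) and *Omg* (0.673) for *Acan*. No other member was among the 3 closest genes of any of the 9.

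Other genes of the matrix pathway did not pass the test in any comparison. Of 104 genes in 5 lists (other matrix and link genes, chondroitin chain synthesis, sulfotransferases, proteases with hyaluronidases and inhibitors, and receptors), 98 were tested, and 0 were called for ELS in Fkbp5lox/lox mice, in Fkbp5Nex mice, over both genotypes, for the interaction or for genotype, with 4, 3, 1, 5 and 15 at an unadjusted p below 0.05. Over all genes 0% were called in each ELS comparison and for the interaction, and 0.117% for genotype, so nothing is read from this. The first 4 unadjusted counts were 4.08%, 3.06%, 1.02% and 5.1% of the 98 genes, against 4.86%, 2.8%, 3.56% and 4.02% of all genes. After ELS in Fkbp5lox/lox mice the smallest p belonged to the chondroitin polymerising factor gene *Chpf2* (log2 fold change 0.20, SE 0.07), the pentraxin receptor gene *Nptxr* (0.18, SE 0.08) and the adhesion molecule gene *Ncam1* (0.10, SE 0.05), with adjusted p of 0.954 by edgeR. In Fkbp5Nex mice they belonged to the protease genes *Adamts8* (−0.32, SE 0.12) and *Mmp15* (0.25, SE 0.11) and to *Dse* (−0.23, SE 0.11), the epimerase that makes dermatan sulfate. Over both genotypes they were *Chpf2* (0.13, SE 0.05), the net-bound guidance cue *Sema3a* (0.55, SE 0.28) and *Reln* (0.16, SE 0.08), and for the interaction *Ncam1* (0.17, SE 0.07), *Adamts8* (0.41, SE 0.16) and the xylosyltransferase *Xylt1* (0.23, SE 0.10). Adjusted p was 0.9995 or more in those 3 comparisons. For genotype they were the lectican-cleaving protease *Adamts15* (0.29, SE 0.07, adjusted p = 0.0872 by edgeR), the testican gene *Spock2* (0.10, SE 0.03) and the integrin gene *Itga8* (−0.20, SE 0.06). The 15 unadjusted genotype hits were 15.3% of the 98 genes, where all tested genes had 11.5%.

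The 11 other genes of chondroitin and dermatan sulfation give the setting of *Chst15*. None was called, and for genotype 6 had positive and 5 negative estimates with a median log2 fold change of 0.01. *Chst11*, which adds the 4-sulfate that *Chst15* builds on, had a genotype estimate of −0.005 (SE 0.037), *Chst12* of 0.01 (SE 0.05), and *Chst3* and *Chst7*, both 6-sulfotransferases, of 0.20 (SE 0.19) and 0.03 (SE 0.10). Only *Papss2*, which makes the sulfate donor, was below 0.05 before adjustment (0.19, SE 0.07, unadjusted p = 0.0199, adjusted p = 0.331 by edgeR). After ELS in Fkbp5Nex mice 10 of the 11 had negative and 1 a positive estimate, with a median of −0.03 against 0.004 over all genes, and in Fkbp5lox/lox mice 6 were positive and 5 negative.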

How the data were processed

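The values deposited by the authors were raw counts of reads by gene, in 24 hippocampal samples. Per the submitters' processing notes and the study's methods, reads were aligned with HISAT2 2.0.5 and counted with featureCounts 1.5.0-p3. Genome build, annotation and strand setting of the counting are not given in the sources used here. Mice were assigned to groups by their labels. From the counts, genes reaching 10 counts in all mice of 1 group or more were tested with edgeR 4.0.16 (quasi-likelihood test, TMM, group means, 5 surrogate variables from sva 3.50.0, all 24 mice in 1 fit) with Benjamini-Hochberg adjustment over 16209 genes at an FDR of 0.02. DESeq2 1.42.0 was an alternative. The fit was tested on simulated data. Log2 CPM used a prior count of 0.5. Gene positions and lengths came from GENCODE vM21 (GRCm38), matched by identifier, and upstream windows from RefSeq (GRCm38.p6). The 9 members and all gene lists were chosen with earlier results of these data known. Genes named were the 9 members, the checks *Fkbp5* and *Neurod6*, pathway genes past the threshold or with the 3 smallest p per comparison, the 3 genes most like each member (1 of which is not reported here), and up to 3 genes of a marker list. *Neurod6*, at the Cre locus, had 142 ± 47.0 CPM in Fkbp5Nex and 257 ± 64.6 in Fkbp5lox/lox mice. *Chst3*, *Chst7*, *Chst11*, *Chst12* and *Papss2* were named after their values were seen.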

Additional observations from a re-analysis of the deposited data

Results flagged for a closer look

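*Tnc* in Fkbp5Nex ELS mouse 66 was 10.4 CPM (202 counts), far from the other 5 mice of its group, which lay between 4.67 and 6.27 CPM. It was the only outlying value (Dixon's test of the gap over the range, here 0.719) among 36 gene and group combinations, and chance marks about 1 in 20. The *Tnc* difference between Fkbp5Nex ELS and control mice was −0.27 on the log2 scale with this mouse and −0.46 without it, and was not called either way.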

How the results depend on the processing

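Leaving out the surrogate variables took the genotype calls from 19 to 3 genes and the called members from 1 to 0, and of the 36 ELS values of the members 11 changed sign, among them *Chst15* in Fkbp5Nex mice (−0.145) and over both genotypes (−0.013), *Hapln1* in Fkbp5Nex mice (−0.002) and the interaction of *Tnr* (−0.014). The differences behind the exact permutation tests were also of the other sign for *Chst15* (−0.078) and *Tnr* (0.038) in Fkbp5Nex mice and for the interaction of *Tnr* (−0.058). The cause was not tested. DESeq2 size factors and DESeq2's Wald test changed 0 of the 36 signs, filterByExpr and no filter 2 each, and leaving out any 1 mouse 17. Genotype calls over all genes were 50 at an FDR of 0.05, 27 with filterByExpr, 26 with no filter and 70 by the Wald test. With each mouse left out, *Hapln4* ranged from −0.025 to 0.285 in Fkbp5lox/lox mice, from −0.031 to 0.164 over both genotypes and from −0.022 to 0.275 for the interaction, *Acan* from −0.315 to 0.039 in Fkbp5lox/lox mice, and the interaction of *Chst15* from −0.043 to 0.081. Called members for genotype then numbered 0 or 1 (0 without Fkbp5lox/lox control mouse 74), called pathway genes 0 or 1 (*Fbln2*, −0.514, without Fkbp5lox/lox ELS mouse 68, named after its value was seen), and all genotype calls 4 to 32. No member and no pathway gene was called for ELS or the interaction under any setting tried, while leaving out Fkbp5lox/lox ELS mouse 68 let *Slc4a5* be called in Fkbp5Nex mice and over both genotypes. On the vst scale the same 3 pairs and the same 24 marker relations passed the threshold, and library totals without TMM kept the order of levels. Leaving out mouse 12 or mouse 8 from the relations was chosen after seeing the data. Rearing was assigned to whole litters per the study's methods, and the labels used here do not give the litter of a mouse. Littermates could thus be neither paired nor grouped, and every test and SE treats the mice as independent. *Acan*, with 38 to 95 counts per mouse, and *Tnc*, with 92 to 260, had the fewest reads of the 9 genes, and the part of depth in their spread was not tested.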
